A study of Gossypium hirsutum with 24 samples.

Results

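Expansins and xyloglucan enzymes were followed through bollworm infestation of developing cotton bolls. The members were the probe sets of the Affymetrix Cotton GeneChip whose gene description, in the readable supplementary tables of the study, held expansin, xyloglucan, XTH, XTR or TCH4. These made 49 probe sets out of 23977 cotton probe sets on the array, namely 23 alpha-expansins, 1 beta-expansin, 1 expansin-like A, 3 expansin-like B and 21 xyloglucan enzymes. The tables give transcripts that the study had called as different between infested and noninfested bolls on these same arrays. Differences between infested and noninfested bolls were therefore part of how the members were chosen, and they are given below as a description with no test.

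Expansins are small secreted proteins that loosen plant cell walls without cutting them, by letting cellulose and the glycans bound to it slide past each other as the cell takes up water. Alpha-expansins and beta-expansins have this activity, whereas expansin-like A and B proteins share the fold and have no known loosening activity. Xyloglucan is the main hemicellulose of the primary wall in dicot plants, and xyloglucan endotransglucosylase/hydrolases (XTH, also written XET, EXGT, XTR or TCH4) cut it and rejoin its ends. Cotton fibres are single seed-coat cells that start at anthesis and elongate for weeks inside the boll, and expansins and XTH enzymes are well known in them.

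The bolls came from field-grown Gossypium hirsutum cv. Bikaneri narma. Noninfested control bolls (CN) and bolls infested with larvae of Helicoverpa armigera, the cotton bollworm (BS), were compared at 4 stages, namely 0, 2, 5 and 10 days after anthesis (dpa, days post anthesis), which gave 8 groups of 3 arrays. Bolls of both treatments were bagged, and the BS and CN bolls grew in separate plots, so that plot and treatment cannot be told apart. BS bolls of 0 dpa had carried a larva for 8 h, those of 2 and 5 dpa for as many days, and those labelled 10 dpa had lost it after 5 days and grown on for 10 days by the methods or up to that time by the labels. The 0 and 2 dpa samples were entire bolls. At 5 and 10 dpa only the infested part of the BS bolls was used, with the respective controls, and the methods do not say which part of the CN bolls was taken. At these stages the part of the boll sampled and the infestation therefore cannot be told apart. The step from 2 to 5 dpa in BS also goes from entire bolls to a part. Each replicate was a pool from 5 plants, and in such pooled tissue fewer cells of a type and less RNA per cell cannot be told apart.

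The values were log2 expression values, which the deposited table holds centred on the median of each probe set over the 24 arrays. A value of 0 therefore means the median array, and neither abundance nor a ranking between probe sets can be read from it. Within groups the spread was small, with a median SD over the members between 0.0622 and 0.114 log2 units. The added hybridization controls were higher in BS than in CN by 0.65 to 0.9 log2 units and the added poly-A controls by 0.94 to 2.02, so the scaling matters for the directions given below. The CN arrays of 2 dpa stood apart from the other CN arrays. They were at least 3-fold above both neighbouring CN stages for 4 members and at least that far below for 1, against 308 (1.28%) and 36 (0.15%) of all probe sets. The counts at 2 dpa over all members and over both large subfamilies, and the values of some single members that turn on these arrays, are given with them and against CN of 0 and 5 dpa. The other values of 2 dpa use them as they are, and some of those may turn on them too.

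Members are named by the array annotation where it names them. A match to an Arabidopsis protein in the hormone table was given for 39 members, and 7 had no other name. The matches were to few proteins (XTH4 for 14 members, EXPA1 for 9, EXPA3 for 7, XTH22 for 5, EXPA5 for 3 and XTH24 for 1), so the number in a name does not fix the cotton gene. Probe sets whose ID ends in _s_at or _x_at can bind transcripts of several related genes. With these and with those ending in _a_at, the A and D copies of tetraploid cotton cannot be separated. Of the members, 11 could be paired with 8 RefSeq genes. The only printed sequences for a member were the qRT-PCR primers that the study designed for EXPA4 (Ghi.6188.1.A1_at), 1 of the 3 members that were at least 3-fold lower in BS at every stage. They mark the transcript that this probe set reports and are written from 5′ to 3′, in lower case throughout because no part of them is singled out.
EXPA4 forward: tcgtgaaggctagtgtgaaag
EXPA4 reverse: actgcctgtgaccctaaatg

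As a first overview, BS was set against CN at each stage, with the adjusted p of at most 0.01 and the fold change of at least 3 that the study used for its DETs (differentially expressed transcripts). At 0 dpa 13 members were past both thresholds and higher in BS and 9 were lower, where 4.19% and 1.28% of all probe sets were past them (5.47% in either direction). At 2 dpa 7 were higher and 14 lower (3.34% and 4.46% of all, 7.8% together), and at 5 dpa 16 were higher and 7 lower (6.39% and 2.46%, 8.85% together). At 10 dpa 11 were higher and 26 lower (8.97% and 11.5%, 20.5% together). Every CN array lay on 1 side of every BS array in 47, 45, 46 and 48 members at 0, 2, 5 and 10 dpa, and in 59.4%, 68.6%, 67.3% and 75.6% of all probe sets. Below, counts of higher and lower members are of those past both thresholds. The median difference of the members was 0.80, -0.42, -0.05 and -2.19 log2 units at the 4 stages, beside -0.08, 0.08, -0.11 and 0.08 for all probe sets. The shares show nothing about the family, since membership required such a difference: 46 of the 49 members were past the thresholds at 1 or more stages, as were 23.6% of all probe sets.

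The counts of higher and lower members depended on the scaling at 0, 2 and 5 dpa, and at 0 and 5 dpa the larger side changed. Centred on the hybridization controls, the counts of higher and lower members became 9 and 18 at 0 dpa, 1 and 22 at 2 dpa, 9 and 15 at 5 dpa and 9 and 30 at 10 dpa. Of all probe sets, 2.46% were then higher and 5.39% lower at 0 dpa, 1.08% and 16.4% at 2 dpa, 3.38% and 13.2% at 5 dpa, and 5.02% and 21.7% at 10 dpa. Centred on the poly-A controls the members became 7 and 20, none and 35, 4 and 26, and 9 and 31. All probe sets shifted with them, with 1.36% higher and 26.4% lower, 0.342% and 78.7%, 1.46% and 75.4%, and 4.48% and 25.5%. At 2 and 10 dpa more members were lower than higher under each of these scalings, as were more of all probe sets. After quantile normalization 7 members were higher and 13 lower at 2 dpa (4.95% and 5.54% of all probe sets). At 10 dpa 10 were then higher and 23 lower, beside 5.7% and 5.64% of all. Set against the mean of CN at 0 and 5 dpa in place of the CN arrays of 2 dpa, BS at 2 dpa had 15 members higher and 16 lower (6.39% and 6.32% of all probe sets).

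**Figure D1:**
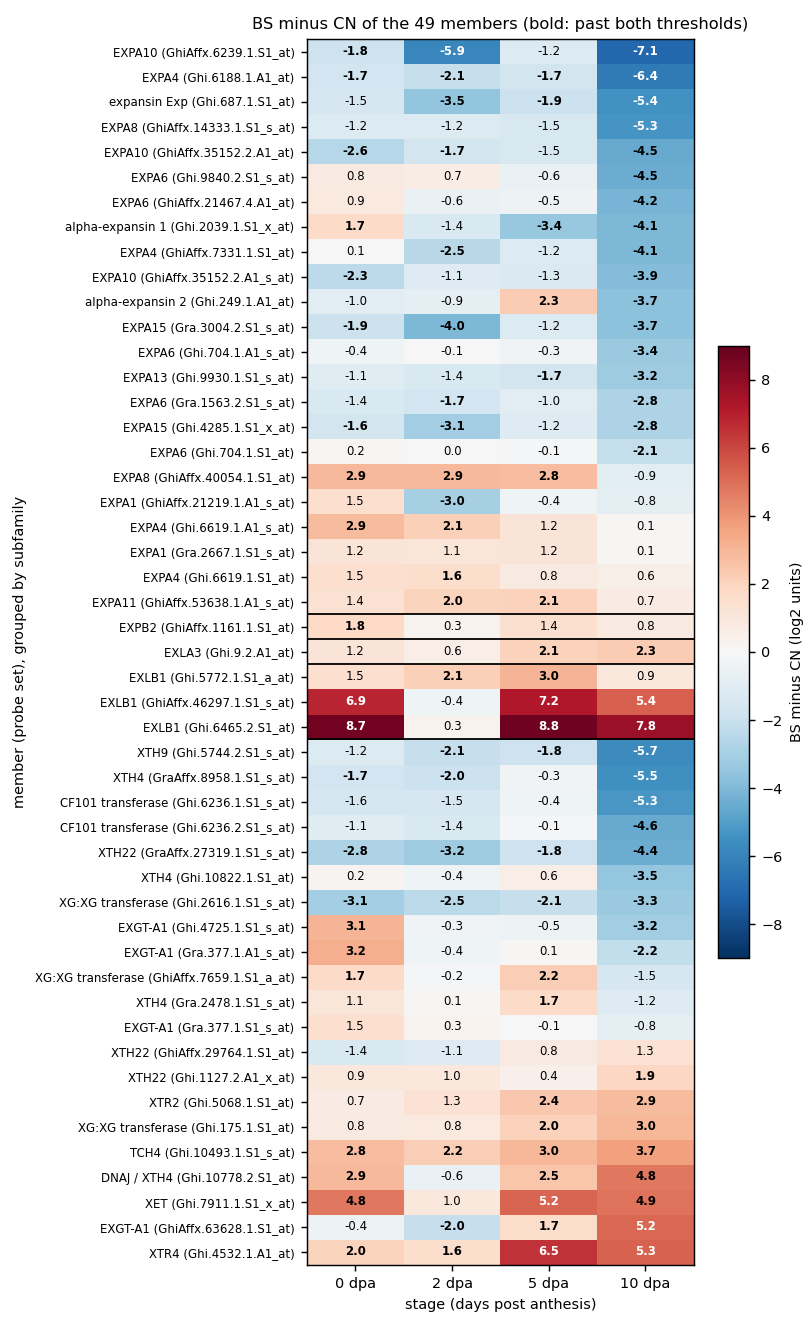
Difference between BS and CN (log2 units, colour and printed value) for each of the 49 members at 0, 2, 5 and 10 dpa, with members grouped by subfamily and sorted by the value at 10 dpa. Bold values are past both thresholds. The upper block of alpha-expansins is lower in BS at 10 dpa for 17 of its 23 probe sets, down to -7.08.

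Of both large subfamilies, the alpha-expansins were the more uniform at 10 dpa, where 17 of 23 were past the thresholds and lower in BS and none was higher. Their median difference was -3.70 log2 units and the values ran from -7.08 to 0.74. At 0, 2 and 5 dpa the median was -0.36, -1.21 and -1.01, with 3 higher and 6 lower, 4 higher and 9 lower, and 3 higher and 4 lower. Against CN of 0 and 5 dpa, 4 were higher and 10 lower in BS at 2 dpa. The mean of the 23 probe sets lay between 0.926 and 0.946 on the CN arrays of 10 dpa and between -2.193 and -2.115 on the BS arrays, so the groups were far apart. Between 5 and 10 dpa all 23 had a lower mean in BS, with a median change of -1.88 log2 units, whereas in CN the median change was 0.36.

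EXPA10 (GhiAffx.6239.1.S1_at), an alpha-expansin matched to Arabidopsis EXPA5, had the lowest difference of all members at both 2 and 10 dpa. At 2 dpa it read 0.42, 0.43 and 0.37 on the CN arrays and -5.14, -5.93 and -5.29 on the BS arrays. At 10 dpa it read 1.88, 1.83 and 1.86 in CN and -5.16, -5.14 and -5.36 in BS, 135-fold lower (-7.08 ± 0.12 log2 units, SE, n = 3 arrays per group). At 5 dpa it came back close to CN, with 0.85, 0.78 and 0.78 against -0.57, -0.41 and -0.37. The groups did not overlap at any stage, and the difference was smallest at 5 dpa.

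EXPA4 (Ghi.6188.1.A1_at), the transcript of the primers above, was lower in BS at all 4 stages. The CN arrays read 0.71, 0.84 and 0.82 at 0 dpa and the BS arrays -0.97, -0.86 and -0.95. At 10 dpa they read 1.82, 1.69 and 1.87 against -4.46, -4.69 and -4.54, and the difference grew from -1.71 ± 0.08 to -6.36 ± 0.08 log2 units (SE), or from 3.28-fold to 82-fold lower. At 2 and 5 dpa it was -2.10 and -1.66.

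Other alpha-expansins were also low in BS at 10 dpa, some of them at earlier stages too. The probe set named expansin Exp (Ghi.687.1.S1_at) differed by -3.53 at 2 dpa, -1.95 at 5 dpa and -5.44 at 10 dpa. EXPA8 (GhiAffx.14333.1.S1_s_at) had CN values of 3.95, 3.82 and 4.01 at 10 dpa, its highest of any stage, against -1.54, -1.62 and -0.95 in BS. Of the 5 probe sets named EXPA6, none was past the thresholds and higher at any stage and all 5 were past them and lower at 10 dpa, by -2.13 to -4.46 log2 units. EXPA6 (Ghi.9840.2.S1_s_at) read -0.53, -0.45 and -0.50 in CN there and -5.04, -4.62 and -5.21 in BS, although its BS arrays had been above CN by 0.83 at 0 dpa and 0.69 at 2 dpa. Both EXPA15 probe sets were past the thresholds and lower at 0, 2 and 10 dpa, and lowest at 2 dpa, with -1.92, -4.01 and -3.70 for Gra.3004.2.S1_s_at.

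Markers of other cells and tissues also differed between BS and CN. The marker lists were taken by words in the gene descriptions of the same tables as the members. Their differences were therefore part of how they were chosen too, and are a description. Of all probe sets, 11.5% were lower and 8.97% higher in BS at 10 dpa, and 4.46% were lower at 2 dpa. All 5 probe sets of the fibre list were past the thresholds and lower in BS at 10 dpa. Their mean there lay between 1.585 and 1.643 on the CN arrays and between -2.009 and -1.950 on the BS arrays. This list includes weak matches to the Arabidopsis microtubule motor FRA1 (FRAGILE FIBER 1), so not all of it is annotated as cotton fibre. The green tissue markers were lower in 17 of 19 cases at 10 dpa and in 15 of 19 at 2 dpa, and 6 of the 7 xylem and secondary wall markers were lower at 10 dpa. In each of these lists 1 marker was higher at 10 dpa. The list means there were 1.132 to 1.198 in CN against -0.848 to -0.839 in BS for green tissue, and 2.856 to 2.953 against -0.475 to -0.176 for xylem and secondary wall. The xylem list includes a cellulose synthase-like gene that is there through a hormone table match to a cellulose synthase. Embryo and seed storage markers went the other way in 4 of 6 cases and 1 was lower, with means of 0.028 to 0.059 against 3.267 to 3.359. Most of this list is described as late embryogenesis abundant proteins and the rest as oleosins, so not all of it need mark embryo cells. Which defining markers are expressed at all cannot be read from centred values, and the part of these cell types in the alpha-expansin differences was not tested.

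**Figure D2:**
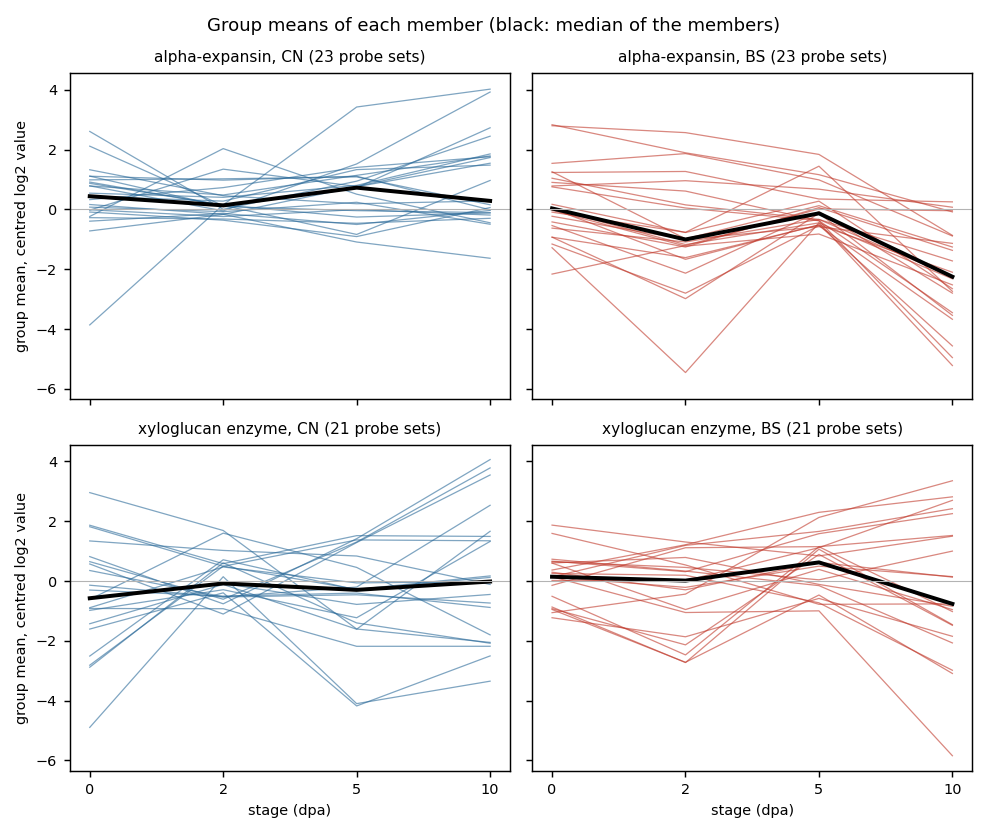
Group means (centred log2 values) of the 23 alpha-expansins and the 21 xyloglucan enzymes at 0, 2, 5 and 10 dpa (stages evenly spaced) in CN and in BS, 1 thin line per probe set and the median in black. The alpha-expansins end lower in BS at 10 dpa, whereas the xyloglucan enzymes fan out in both directions.

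Some alpha-expansins were higher in BS during infestation. EXPA8 (GhiAffx.40054.1.S1_at) read -0.17, -0.02 and -0.07 in CN and 2.78, 2.79 and 2.83 in BS at 0 dpa, 7.40-fold higher. It was higher by 2.93 at 2 dpa and 2.75 at 5 dpa, and was lower by -0.93 at 10 dpa, under the fold threshold. The EXPA4 probe set Ghi.6619.1.A1_s_at was higher by 2.85 ± 0.07 at 0 dpa and 2.13 ± 0.07 at 2 dpa (SE), and by no more than 0.11 at 10 dpa. EXPA11 (GhiAffx.53638.1.A1_s_at) was past the thresholds at 2 and 5 dpa with 2.03 and 2.08, and at 10 dpa it had the largest positive difference of the subfamily, 0.74. None of the 4 alpha-expansins above 0 at 10 dpa was past the thresholds.

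Alpha-expansin 1 and alpha-expansin 2 were among the 5 members past the thresholds on opposite sides at different stages, as were 0.309% of all probe sets. Alpha-expansin 1 (Ghi.2039.1.S1_x_at) climbed steeply in CN, from -3.82, -3.71 and -4.05 at 0 dpa through 0.14, 0.18 and 0.15 at 2 dpa and 3.20, 3.53 and 3.55 at 5 dpa to 4.03, 4.13 and 3.92 at 10 dpa. In BS it started higher, at -2.07, -2.13 and -2.28, and reached only 0.06, 0.06 and -0.07 at 5 dpa and -0.13, 0.07 and -0.06 at 10 dpa. The difference was thus 1.70 at 0 dpa and -3.41 and -4.07 (10.6-fold and 16.8-fold lower) at 5 and 10 dpa. Quantile normalization of the deposited values turned the difference at 0 dpa to -1.52, whereas it stayed above 0 when centred on either kind of added controls. Alpha-expansin 2 (Ghi.249.1.A1_at) was higher by 2.28 at 5 dpa, with -0.78, -0.85 and -0.88 in CN against 1.45, 1.47 and 1.42 in BS, and lower by -3.71 at 10 dpa, with 0.99, 0.94 and 0.98 against -3.12, -2.62 and -2.47. EXPA1 (GhiAffx.21219.1.A1_s_at) was past the thresholds at 2 dpa alone (-3.02), where CN read 1.97 to 2.07 after -0.36 to -0.09 at 0 dpa. Against CN of 0 and 5 dpa its difference at 2 dpa was -1.12.

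The beta-expansin and the expansin-like genes had higher means in BS at 0, 5 and 10 dpa. EXPB2 (GhiAffx.1161.1.S1_at), whose hormone table match was EXPA1, was past the thresholds at 0 dpa (1.77) and had differences of 0.33, 1.41 and 0.79 afterwards. EXLA3 (Ghi.9.2.A1_at) had 1.19 and 0.60 at 0 and 2 dpa and was past the thresholds at 5 dpa (2.09) and 10 dpa (2.31). Against CN of 0 and 5 dpa it was past them at 2 dpa too (1.68). The largest differences of all members belonged to EXLB1 (Ghi.6465.2.S1_at), an expansin-like B gene. It read -8.10, -7.90 and -7.93 in CN at 0 dpa and 0.65, 0.73 and 0.78 in BS, 414-fold higher. The difference was 8.78 at 5 dpa (441-fold) and 7.77 at 10 dpa (219-fold), each with an SE of 0.13 log2 units.

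At 2 dpa the noninfested bolls also had the EXLB1 transcript near the level of BS, with 0.39, 0.45 and 0.59 in CN against 0.83, 0.81 and 0.82. The BS values varied little, with group means from -0.41 to 0.82, so the CN arrays of 2 dpa set the difference there to 0.34. Against the CN arrays of 0 and 5 dpa it was 8.90. The second probe set of the same UniGene cluster (GhiAffx.46297.1.S1_s_at) had the same course, with 6.88, -0.41, 7.23 and 5.38, and 6.77 at 2 dpa against the neighbouring CN stages. A further EXLB1 probe set (Ghi.5772.1.S1_a_at) lay outside that cluster and followed another course. Its CN values went down from 0.44, 0.69 and 0.45 at 0 dpa to -1.95, -1.90 and -1.83 at 10 dpa, and BS was above it by 1.53, 2.14, 3.05 and 0.95. The stamen and pollen markers came from the same tables as the members. Of these 5 markers, 3 were higher in BS at 0, 5 and 10 dpa and 1 at 2 dpa. At 5 dpa 1 was lower, and at 10 dpa 2 were lower. Of all probe sets, 4.19%, 3.34%, 6.39% and 8.97% were higher at the 4 stages, and 2.46% and 11.5% were lower at 5 and 10 dpa. The mean of the stamen and pollen markers on the CN arrays was -1.347 to -1.285 at 0 dpa, -0.109 to -0.059 at 2 dpa and -0.294 to -0.249 at 5 dpa. It came up at 2 dpa with EXLB1 and did not go back to the level of 0 dpa as EXLB1 did. Their part in the EXLB1 values was not tested.

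**Figure D3:**
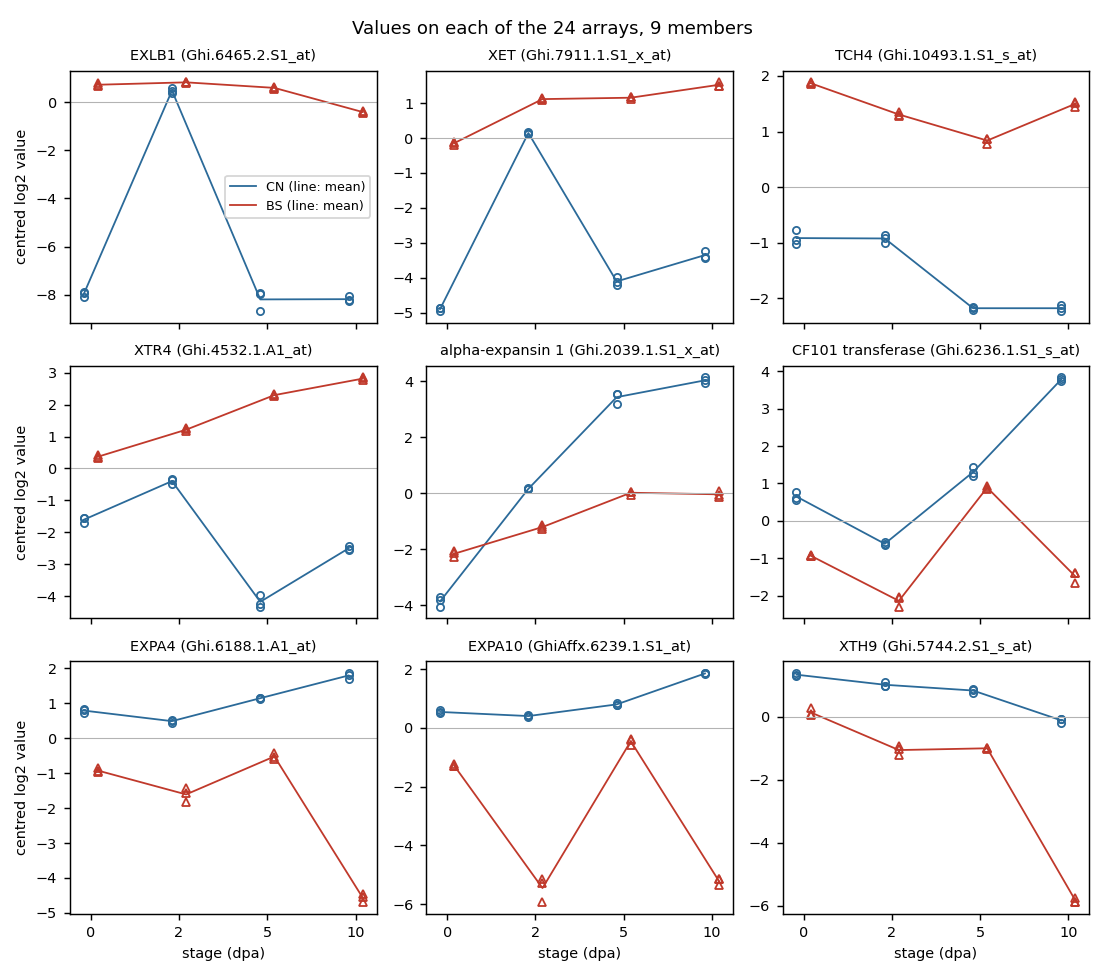
Centred log2 value on every array (circles CN, triangles BS, lines through the group means) at 0, 2, 5 and 10 dpa (stages evenly spaced) for 9 members, each with its own vertical scale. EXLB1 and XET are low in CN at 0, 5 and 10 dpa and near BS at 2 dpa, while TCH4 and XTR4 are above CN on every BS array.

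Xyloglucan enzymes split into members that were higher in BS and members that were lower, 8 against 9 of 21 at 10 dpa. At 0, 2 and 5 dpa the counts were 7 and 3, 2 and 5, and 9 and 3, and at 2 dpa they were 7 and 6 against CN of 0 and 5 dpa. TCH4 and XTR4 were the 2 members of all 49 that were past both thresholds and higher at every stage, as were 1.45% of all probe sets. Centred on the poly-A controls, no member was past them and higher at 2 dpa (0.342% of all probe sets were). Neither TCH4 nor XTR4 was then higher at every stage. TCH4 (Ghi.10493.1.S1_s_at), known in Arabidopsis as a gene induced by touch, read -0.78, -1.02 and -0.96 in CN and 1.85, 1.87 and 1.89 in BS at 0 dpa. The differences were 2.79, 2.23, 3.02 and 3.68 log2 units with an SE of 0.06, and the last was 12.8-fold.

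XTR4 (Ghi.4532.1.A1_at) increased along the stages in BS while its CN values dipped at 5 dpa. The BS arrays read 0.42, 0.35 and 0.33 at 0 dpa, 1.22, 1.26 and 1.16 at 2 dpa, 2.27, 2.30 and 2.32 at 5 dpa and 2.76, 2.85 and 2.83 at 10 dpa. The CN arrays read -4.33, -4.24 and -3.96 at 5 dpa, and the difference was 6.48 there (89-fold) and 5.32 at 10 dpa (40-fold). At 0 and 2 dpa it was 1.97 and 1.61, and at 2 dpa it turned to -0.42 when the arrays were centred on the poly-A controls. Against CN of 0 and 5 dpa the difference at 2 dpa was 4.11.

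XET (Ghi.7911.1.S1_x_at), matched to XTH22, resembled EXLB1. CN read -4.86, -4.96 and -4.86 at 0 dpa, 0.11, 0.15 and 0.17 at 2 dpa and -3.97, -4.13 and -4.21 at 5 dpa, whereas BS stayed between -0.20 and 1.60. The differences were 4.75, 0.97, 5.25 and 4.87 (SE 0.06), and 5.61 at 2 dpa against the CN arrays of 0 and 5 dpa. The probe set Ghi.10778.2.S1_at also had this shape, with 2.90, -0.59, 2.52 and 4.78 and with 2.16 at 2 dpa against the neighbouring CN stages. The array annotation calls it a DNAJ heat shock protein and the hormone table matches it to XTH4, so its place among the xyloglucan enzymes is uncertain. XTR2 (Ghi.5068.1.S1_at) and the transferase Ghi.175.1.S1_at were past the thresholds at 5 dpa (2.44 and 2.04) and at 10 dpa (2.87 and 2.99), the stages at which the infested portion was sampled.

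Transcripts described as EXGT-A1 did not share 1 course. EXGT-A1 (GhiAffx.63628.1.S1_at) was lower at 2 dpa (-2.04), higher at 5 dpa (1.67) and 35.6-fold higher at 10 dpa, where CN read -1.89, -1.75 and -1.76 and BS 3.27, 3.34 and 3.45. At 2 dpa it differed by only -0.36 from the CN arrays of 0 and 5 dpa, and with the poly-A controls as reference the difference at 5 dpa was -0.21. Ghi.4725.1.S1_s_at went the opposite way, 8.38-fold higher at 0 dpa, with -2.79, -2.77 and -2.90 in CN against 0.26, 0.24 and 0.25 in BS, and 8.91-fold lower at 10 dpa, with 0.15, 0.16 and 0.19 against -3.02, -3.01 and -2.93. The differences of Gra.377.1.A1_s_at were alike, 3.24 at 0 dpa and -2.19 at 10 dpa. At 2 dpa Ghi.4725.1.S1_s_at and Gra.377.1.A1_s_at differed by -0.3 and -0.38. Against CN of 0 and 5 dpa both differed by 1.74, past the thresholds. The CN means of both were above their 10 dpa level on the 2 dpa arrays, which stood apart, and below it at 5 dpa.

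Among the members lower in BS, 2 xyloglucan enzymes passed the thresholds at all 4 stages, and with EXPA4 they made 3 members (0.317% of all probe sets did so). The transferase Ghi.2616.1.S1_s_at, matched to XTH24, read 1.91, 1.83 and 1.86 in CN at 0 dpa and -1.42, -0.97 and -1.30 in BS. Its differences were -3.09, -2.45, -2.10 and -3.34 (SE 0.11), so that 8 h with a larva went with nearly the value of the last stage. GraAffx.27319.1.S1_s_at, matched to XTH22 in the hormone table, had -2.77, -3.21, -1.84 and -4.44. TCH4 has the same match there, but the paper's pathway table gives GraAffx.27319.1.S1_s_at another Arabidopsis ortholog than TCH4. The shared match therefore does not make them the same gene. XTH9 (Ghi.5744.2.S1_s_at) was the lowest xyloglucan enzyme in BS at 10 dpa, with -0.07, -0.19 and -0.08 in CN against -5.88, -5.76 and -5.89, 53-fold lower.

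A set of transferases went up late in CN and did not in BS. The endo-xyloglucan transferase CF101 (Ghi.6236.1.S1_s_at) read 0.57, 0.76 and 0.62 in CN at 0 dpa, -0.64, -0.62 and -0.57 at 2 dpa, 1.43, 1.28 and 1.20 at 5 dpa and 3.78, 3.73 and 3.83 at 10 dpa. In BS it was close to CN at 5 dpa, at 0.86, 0.89 and 0.92, and at -1.40, -1.40 and -1.65 at 10 dpa, which gave -5.26 ± 0.08 log2 units (SE). At 2 dpa the difference of Ghi.6236.1.S1_s_at was -1.53, and it was -3.11 against CN of 0 and 5 dpa. The second CF101 probe set (Ghi.6236.2.S1_s_at) and the XTH4 match GraAffx.8958.1.S1_s_at were lower by -4.57 and -5.52 at 10 dpa. Counted over all members, 12 of 49 were at least 3-fold higher in CN at 10 than at 0 dpa (3.37% of all probe sets were), and 10 of these 12 had a lower mean in BS at 10 than at 0 dpa, as had 394 of the 807 such probe sets on the whole array. The other 2 of the 12 were alpha-expansin 1, with 7.89 in CN and 2.12 in BS, and the XTH4 match Gra.2478.1.S1_s_at, with 2.31 in CN and 0.02 in BS. These shares show nothing about the family, since the members were chosen for a difference between BS and CN.

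A comparison that does not use the difference between BS and CN is the change of the stage mean, the mean of CN and BS, from each stage to the next. In this balanced design its error is independent of the error of the differences above, apart from the shared estimate of the spread. A member with a large difference at 1 stage can move the stage mean too, so counts over the members are not those of a neutral list. From 0 to 2 dpa 6 members rose and 4 fell in the limma fit (adjusted p at most 0.01 over all probe sets, fold at least 3), where 0.976% and 0.43% of all probe sets did. From 2 to 5 dpa 5 rose and 4 fell (1.21% and 0.613% of all). From 5 to 10 dpa none rose and 7 fell (0.488% and 1.67% of all). Centred on the hybridization controls, 4 rose and 5 fell, 9 rose and 4 fell, and none rose and 9 fell in the 3 steps, and on the poly-A controls 4 rose and 6 fell, 9 rose and 4 fell, and none rose and 9 fell. Of all probe sets, 0.738% rose and 0.742% fell, 1.99% and 0.313%, and 0.309% and 2.38% with the hybridization controls, and 0.621% and 1.03%, 2.57% and 0.246%, and 0.309% and 2.36% with the poly-A controls. In that last step the methods' t-test also gave none rising past both thresholds. Without the fold threshold, 11 members rose and 29 fell at an adjusted p of at most 0.01 by limma. At an unadjusted p under 0.05, 12 members were above 0, and the largest of them was 1.39.

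The largest rises from 0 to 2 dpa were those of EXLB1, with 4.28 ± 0.09 (Ghi.6465.2.S1_at, adjusted p = 8.8e-19 by limma) and 3.44 ± 0.09 (GhiAffx.46297.1.S1_s_at, 7.5e-18), and of XET with 3.15 ± 0.04 (3.1e-21), errors being SE. In BS alone the same steps were 0.10, -0.20 and 1.26, so they rested on the CN arrays of 2 dpa. These 3 probe sets fell again from 2 to 5 dpa by 4.45, 3.45 and 2.10 log2 units, and in BS alone those steps were -0.23, 0.37 and 0.04. In BS alone the median change of the 49 members was -0.64 from 0 to 2 dpa and 0.73 from 2 to 5 dpa. For all probe sets it was 0.05 and -0.06. Steps within BS hold part of the comparison that chose the members, so they are given with no test.

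Alpha-expansin 1 rose in both early steps, by 2.49 ± 0.07 from 0 to 2 dpa and by 2.25 ± 0.07 from 2 to 5 dpa (adjusted p = 2.8e-17 and 1.3e-16 by limma), and both treatments went up in each step (by 0.96 and 1.22 in BS). EXPA10 (GhiAffx.6239.1.S1_at) went down by -2.16 and came up by 2.70, both carried by BS, where the steps were -4.17 and 5.01 against -0.14 and 0.40 in CN. CF101 (Ghi.6236.2.S1_s_at) and GraAffx.8958.1.S1_s_at fell by 1.82 and 1.72 from 0 to 2 dpa and rose by 3.01 and 2.98 from 2 to 5 dpa. CN and BS shared this course, since CF101 changed by -1.67 and 2.39 in CN and by -1.96 and 3.62 in BS. The XTH22 match GhiAffx.29764.1.S1_at, which never passed the thresholds between BS and CN, fell by 2.31 ± 0.11 from 2 to 5 dpa (adjusted p = 2.7e-13 by limma). It went down in both treatments, from 2.81, 3.12 and 2.94 at 0 dpa to -1.56, -1.87 and -1.39 at 5 dpa in CN and from 1.80, 1.43 and 1.55 to -0.87, -0.80 and -0.67 in BS.

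From 5 to 10 dpa the falls were those of 5 alpha-expansins, EXLB1 (Ghi.5772.1.S1_a_at) and XTH9. XTH9 fell by 2.90 ± 0.05, EXPA6 (Ghi.9840.2.S1_s_at) fell by 2.66 ± 0.07 and EXPA15 (Gra.3004.2.S1_s_at) fell by 2.17 ± 0.07 log2 units (adjusted p = 6.0e-20, 2.7e-17 and 6.5e-16 by limma). In CN these steps were -0.95, -0.73 and -0.93 and in BS -4.85, -4.58 and -3.41, so both treatments went down and BS much further. EXPA4 (Ghi.6188.1.A1_at) and EXPA10 fell by 1.70 and 1.86, but in CN they went up by 0.65 and 1.05. When the deposited values were quantile normalized, 1 member in place of 7 fell in this step. With 2 dpa left out, the step from 0 to 5 dpa had alpha-expansin 1 (4.73 ± 0.07) and EXGT-A1 GhiAffx.63628.1.S1_at (2.13) rising, and the XTH22 match GhiAffx.29764.1.S1_at changed by -3.47, where 0.83% and 0.338% of all probe sets rose and fell.

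**Figure D4:**
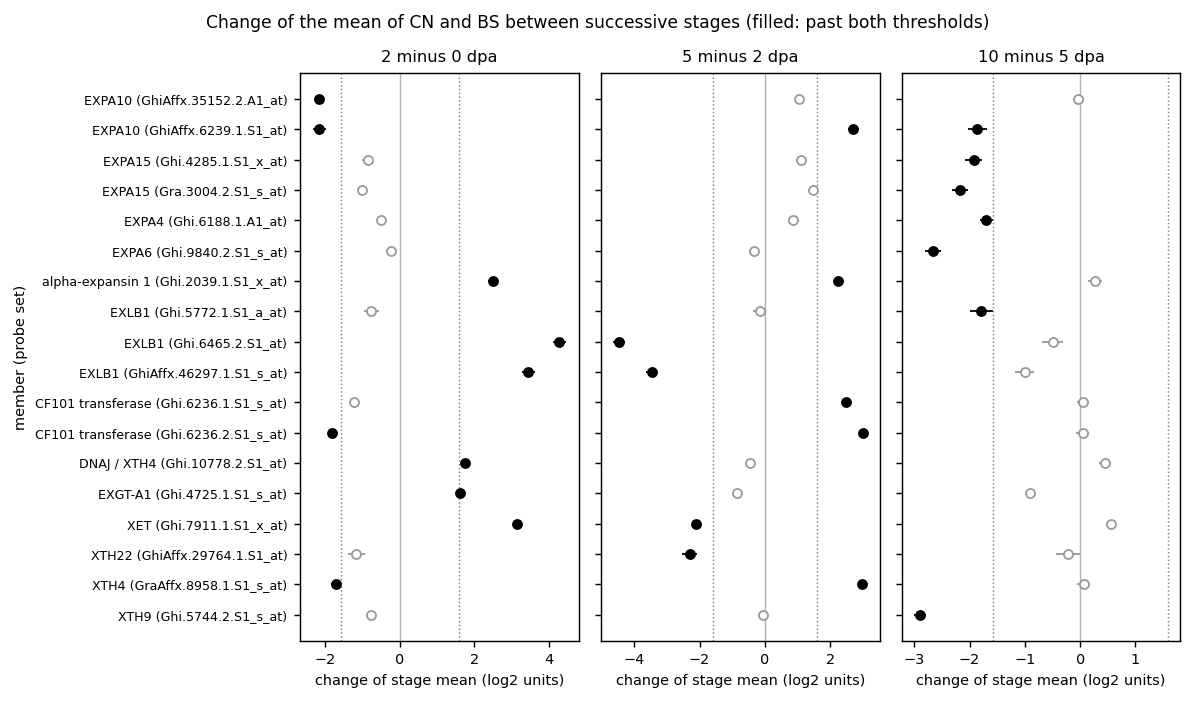
Change of the stage mean (mean of CN and BS, log2 units, bars 2 SE either side) from each stage to the next for the members past both thresholds in at least 1 step, filled where past both and with dotted lines at a fold of 3. The EXLB1 and XET points swing up and back around 2 dpa, and the filled points of the last step are falls only.

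Around the fold threshold, the members just inside it by their largest difference were EXPA4 (Ghi.6619.1.S1_at) with 1.59 at 2 dpa and the XTH4 match Gra.2478.1.S1_s_at with 1.73 at 5 dpa. Both lost their sign with the poly-A controls as reference (-0.44 and -0.16). Just outside were EXGT-A1 (Gra.377.1.S1_s_at) with 1.50 at 0 dpa and the XTH22 match GhiAffx.29764.1.S1_at with -1.36 at 0 dpa. With the EXPA1 match Gra.2667.1.S1_s_at, at 1.18 at most, they were the 3 members past the thresholds at no stage.

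Several transcripts were measured by more than 1 probe set. In each of the 6 UniGene clusters with 2 members, the pair had nearly the same course over the 8 group means, with a Pearson correlation from 0.92 to 0.99 as a description over 8 points. The sizes differed within pairs. The EXPA6 pair Ghi.704.1.A1_s_at and Ghi.704.1.S1_at was lower by -3.35 and -2.13 at 10 dpa, and the EXPA10 pair GhiAffx.35152.2.A1_at and GhiAffx.35152.2.A1_s_at by -4.55 and -3.87. The EXPA4 pair of cluster Ghi.6619 was higher by 2.85 and 1.51 at 0 dpa. In contrast, alpha-expansin 2 (Ghi.249.1.A1_at) and EXPA8 (GhiAffx.40054.1.S1_at), both paired with the RefSeq gene LOC107904848, had a correlation of 0.29. At 0 dpa they differed by -1.01 and 2.89 between BS and CN and at 5 dpa by 2.28 and 2.75, so which transcript each of them reports is uncertain. The likest members outside a shared cluster were CF101 (Ghi.6236.1.S1_s_at) and GraAffx.8958.1.S1_s_at with 0.996 and the EXPA15 pair Ghi.4285.1.S1_x_at and Gra.3004.2.S1_s_at with 0.995.

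Other wall and water transport genes give the setting of these values. They too were taken from the study's tables, so their differences are a description. Endo-1,4-beta-glucanases, which act on cellulose and related glucans and include KORRIGAN of cellulose synthesis, were lower in 6 of 7 cases at 10 dpa, with a median of -3.97 log2 units, and 1 was lower and 2 were higher at 2 dpa. The 3 probe sets matched to KORRIGAN differed by -5.06 (Ghi.8243.1.A1_at), -2.28 (Ghi.9244.2.A1_at) and -1.16 (GhiAffx.26018.1.S1_at) at 10 dpa, and the last of them was higher at 2 and 5 dpa, by 1.75 and 2.02. Beta-galactosidases and alpha-xylosidase 1, which trim sugars from wall glycans such as xyloglucan, divided at 10 dpa into 5 higher and 7 lower of 12. The beta-galactosidase Gra.2314.1.S1_at was higher by 7.49 at 5 dpa and 5.86 at 10 dpa, and the 2 probe sets of alpha-xylosidase 1 (Ghi.89.1.S1_x_at and Ghi.9327.1.S1_s_at) had -6.41 and -5.87 at 10 dpa. Of 16 water channel probe sets, 10 were lower and 2 higher at 10 dpa, and 8 were higher and 3 lower at 5 dpa. The hormone table matches nearly all of them to the tonoplast protein TIP1;1 of Arabidopsis, but other descriptions name several as plasma membrane channels. The 3 probe sets that match EXPA3 without the word expansin had differences of 0.16, -2.95 and -3.63 at 10 dpa, and 1 of them, GhiAffx.24794.1.S1_s_at, was higher by 3.01 at 0 dpa.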

How the data were processed

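The authors made the deposited log2 expression values from scanned arrays in GeneSpring GX, using RMA, which corrects background, quantile normalizes and summarises by median polish. No source used here gives an RMA version. The deposited table was found to be centred on each probe set's median. Control and reporter probe sets were left out, and 23977 cotton probe sets were fitted in limma 3.58.1 (R 4.3.3) with 8 group means over 24 arrays (16 residual and 3.53 prior degrees of freedom). A call needed a Benjamini-Hochberg adjusted p of at most 0.01 over all probe sets and a fold of at least 3, as in the methods. Precision is limited by the number of arrays, 3 per group. The code was tested on simulated data.

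Members and lists were chosen with earlier results of these data known. XTH, XTR and TCH4 were read as gene symbols, and 5 probe sets with these letters inside another word were left out. Readable tables described 3677 probe sets, and some were read in part. Named members were, by rule, the largest rise and fall of BS against CN per subfamily and stage, members past the thresholds in opposite directions, at all stages or at none, those next to the fold threshold, the 3 largest changes of the stage mean per step and direction, and probe sets that share a UniGene cluster. Others named were chosen after their values were seen. RefSeq genes were paired through accessions of the assembly Gossypium_hirsutum_v2.1. The same replicate number does not mark a shared plant or day. Alternatives were quantile normalization, centring on added controls, a replicate block, fits with the compared groups only, the methods' t-test, a fold of 2, and leaving out each array. Alternatives that replace the CN arrays of 2 dpa were chosen after seeing the data.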

Additional observations from a re-analysis of the deposited data

Results flagged for a closer look

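For 5 members, BS was past the thresholds on 1 side of CN at 1 stage and on the other side at another, with every BS array beyond every CN array in both cases (0.309% of all probe sets had calls in both directions). The difference between the stages was not tested, because the members were chosen on these same comparisons. Alpha-expansin 1 was 1.70 log2 units above CN at 0 dpa, and its difference was -3.41 at 5 dpa and -4.07 at 10 dpa. Alpha-expansin 2 had 2.28 at 5 dpa and -3.71 at 10 dpa. The EXGT-A1 probe set Ghi.4725.1.S1_s_at had 3.07 at 0 dpa and -3.16 at 10 dpa, and Gra.377.1.A1_s_at had 3.24 and -2.19 at the same stages. The EXGT-A1 probe set GhiAffx.63628.1.S1_at differed by -2.04 at 2 dpa, then by 1.67 (5 dpa) and 5.15 (10 dpa). Some of these values depended on the processing. Alpha-expansin 1 was at -1.52 at 0 dpa after quantile normalization, and GhiAffx.63628.1.S1_at was at -0.21 at 5 dpa with the poly-A controls as reference and at -0.36, under the fold threshold, at 2 dpa against CN of 0 and 5 dpa. Groups of 3 arrays were too small to look for single arrays that stand apart.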

How the results depend on the processing

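Replicate block: with the replicate number as a block, the counts were unchanged (13 and 9, 7 and 14, 16 and 7, 11 and 26 members higher and lower at 0, 2, 5 and 10 dpa; 6 and 4, 5 and 4, and 0 and 7 in the steps between stages). The numbers do not pair the arrays, since same-numbered CN and BS arrays had correlations of their deviations from -0.24 to 0.108. Fits with only the compared groups and the methods' t-test kept the same counts.

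The median difference of all probe sets shifted by -0.63 to -0.96 with the hybridization controls and by -0.97 to -2.03 with the poly-A controls. Centring on the hybridization controls gave 18 lower at 0 dpa, 1 higher and 22 lower at 2 dpa, 9 and 15 at 5 dpa, and 9 rising from 2 to 5 dpa. Centring on the poly-A controls gave 7 and 20 at 0 dpa, 0 and 35 at 2 dpa, 4 and 26 at 5 dpa, and 9 rising from 2 to 5 dpa, and reversed XTR4 at 2 dpa (-0.42), EXGT-A1 GhiAffx.63628.1.S1_at at 5 dpa (-0.21), EXPA4 Ghi.6619.1.S1_at at 2 dpa (-0.44) and Gra.2478.1.S1_s_at at 5 dpa (-0.16). Quantile normalization gave 16 lower at 0 dpa, 1 falling from 5 to 10 dpa, and 4 rising and 4 falling from 0 to 5 dpa (2 and 1 as reported), and reversed alpha-expansin 1 at 0 dpa (-1.52). It forces arrays of unlike spread to 1 distribution, and the cause of the other shifts was not tested.

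A fold of 2 gave 21 and 18 at 0 dpa, 15 lower at 5 dpa, 11 falling from 0 to 2 dpa, 12 rising from 2 to 5 dpa, 3 rising and 15 falling from 5 to 10 dpa, and 7 rising and 5 falling from 0 to 5 dpa. Against the mean of CN at 0 and 5 dpa, 15 members were higher at 2 dpa. The steps around 2 dpa in BS alone are given above as values with no calls.

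Leaving out 1 array at a time gave 13 to 15 higher and 9 to 10 lower at 0 dpa, 5 to 7 and 13 to 14 at 2 dpa, 15 to 16 and 6 to 7 at 5 dpa, and 11 and 26 at 10 dpa. The steps kept 6 and 4 from 0 to 2 dpa, 5 to 6 and 4 from 2 to 5 dpa, 0 and 7 to 8 from 5 to 10 dpa, and 2 and 1 from 0 to 5 dpa. With 3 arrays a group, pooled from plants of 1 plot per treatment, the spread covers pools within a plot only.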
